A study of Homo sapiens with 7 samples.

Results

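The replication-dependent histone genes encode the bulk of the linker histone H1 and of the core histones H2A, H2B, H3 and H4 that package newly made DNA. They were taken from the gene-level count table by symbol: H1-1 to H1-5 and each row named H2AC, H2BC, H3C or H4C followed by a number. The rule found 65 of 59251 rows, with 5 H1, 16 H2A, 17 H2B, 13 H3 and 14 H4 genes, and used no measured value. Of the 65, 63 lie in 2 places that background knowledge gives as the major histone clusters, 52 in 3 blocks on the short arm of chromosome 6 and 11 on chromosome 1 (GRCh38). The other two, H2AC1 and H2BC1, are testis histone genes on chromosome 6 within the span of SLC17A1.

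The libraries are poly(A) RNA of H9 cells, an established human embryonic stem cell line, grown in the naive-state medium RSeT. The CTRL group (n = 4) and the DJL1 group (n = 3) were both transfected with guide RNA plasmids in RSeT with 10 nM DZNep, which lowers histone methylation, and 5 nM TSA, an inhibitor of histone deacetylases, and both received the survival cocktail CEPT for the initial 16 h, so no group is free of chromatin inhibitors. RNA was taken 48 h after transfection. The title of the series concerns LINE1 elements next to the ribosomal DNA repeats. The labels name neither the protein that the guides direct nor the content of the CTRL plasmids, give no batch, and differ on whether cells were sorted. They also do not call the replicates separate cultures, so a p-value here reflects sample-to-sample spread that may be technical, and all cells come from a single line. In bulk RNA a smaller number of cells of a type and less RNA per cell cannot be told apart.

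Depth was 62277489 to 76691997 counts in CTRL and 34634882 to 37795742 in DJL1, without overlap, and levels are given as CPM, counts per 1000000 counts of a library after scaling by TMM factors. Of 9 pluripotency markers 7 were lower and 1 higher in DJL1, with a median log2 fold change of -0.39 over the 9. POU5F1, the 1 marker not called, stood at 5324 ± 73.1 CPM (SD, n = 4) in CTRL and 5354 ± 269.4 (SD, n = 3) in DJL1. Of 7 fibroblast markers 5 were tested and 4 were higher, the summed level of the list being 489 to 503 CPM in CTRL and 759 to 877 in DJL1; LUM and DCN, which mark fibroblasts, averaged at most 0.119 CPM in either group, no marker averaged 0, and the part of such cells in the histone results was not tested. Of 2 leukocyte markers CD74 was not called and PTPRC was too low to test. Over all tested genes 27.0% were higher and 25.1% lower.

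Histone mRNAs of this class are made in S phase and differ from other mRNAs at their 3′ end: they are cut after a short stem-loop that SLBP binds, with the help of the U7 snRNP, and normally carry no poly(A) tail. A library selected for poly(A) RNA therefore records only the part of this RNA that passed the selection, such as tailed transcripts from a downstream poly(A) site and carry-over of tailless RNA. The levels below are levels of that part, and its share of all histone RNA was not measured here. Tailed transcripts are known from several of these genes, above all in cells that have left the cell cycle.

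The stem-loop was found in GENCODE 29 transcript models of 26 members, as 6 different 16-base cores. It lies in the 3′ untranslated region, and it is shown because it is the element that sets these RNAs apart from other mRNA. Each is written 5′ to 3′ with T for U, the 16-base stem-loop in capitals and 5 flanking bases in lower case.
H4C5: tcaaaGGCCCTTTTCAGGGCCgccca
H4C8: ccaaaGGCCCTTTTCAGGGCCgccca
H4C11: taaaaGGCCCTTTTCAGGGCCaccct
H4C9: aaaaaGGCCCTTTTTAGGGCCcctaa
H4C15: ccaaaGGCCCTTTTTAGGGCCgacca
H2AC6: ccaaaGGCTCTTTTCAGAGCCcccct
H2AC11: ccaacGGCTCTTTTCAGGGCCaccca
H2BC5: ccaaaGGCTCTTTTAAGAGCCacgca
H2BC8: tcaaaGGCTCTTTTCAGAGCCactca
H3C6: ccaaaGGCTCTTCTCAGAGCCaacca
The core of H2BC8 and H2AC6 was the most frequent, in 13 members of the H2A, H2B and H3 families. The core of H4C5, H4C8 and H4C11 was found in 4 H4 genes, and among its 3 tested genes 2 were higher and 1, H4C11, was lower in DJL1, so genes with the same stem-loop letters had opposite calls. The core of H4C9 and H4C15 was also that of H4C14, and all 3 were higher.

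The 65 genes together stood at 154, 151, 156 and 150 CPM in the 4 CTRL libraries and at 211, 252 and 191 CPM in the 3 DJL1 libraries. The lowest DJL1 library was above the highest CTRL library, and DJL1 replicate 2 was above its 2 group mates. The means were 153 ± 3.03 CPM (SD, n = 4) and 218 ± 31.5 CPM (SD, n = 3), a ratio of 1.43, or 0.51 on the log2 scale, and 0.40 on the log2 scale without DJL1 replicate 2. Each of the 5 families had a higher summed mean in DJL1, by a ratio of 1.32 for H1, 1.51 for H2A, 1.47 for H2B, 1.72 for H3 and 1.34 for H4. In H1 and H4 the spread was uneven: H1 stood at 7.60 to 10.7 CPM in CTRL and 9.36 to 15.1 in DJL1, which overlap, and H4 at 56.9 to 60.0 and 64.2 to 92.6.

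**Figure D1:**
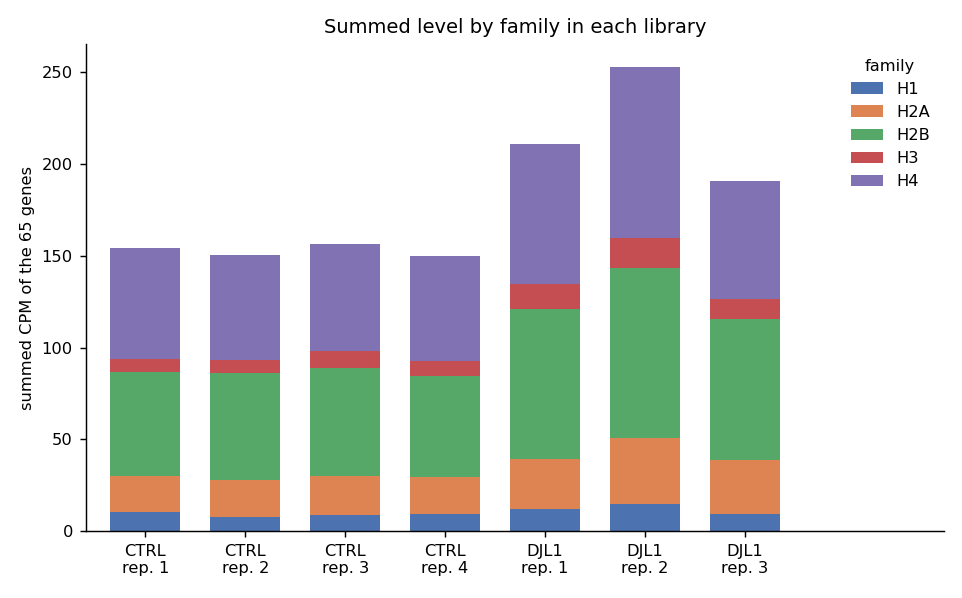
Summed CPM of the 65 replication-dependent histone genes in each of the 7 libraries (vertical axis, CPM), with the bar of each library split by histone family. The 4 CTRL bars reach 150 to 156 CPM and the 3 DJL1 bars 191 to 252 CPM, most of it from H2B and H4 in both groups.

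Of the 65 genes 50 had enough counts to be tested, and 20 were higher and 3 lower in DJL1 at an adjusted p of 0.05 (edgeR's quasi-likelihood test, Benjamini-Hochberg over 26062 genes), while 27 were not called. Over all tested genes 27.0% were higher and 25.1% lower by the same rule, so the members' 40.0% higher stood above, and their 6.0% lower below, a background in which about as many genes fell as rose. The groups did not overlap for 22 members with DJL1 above and 4 with DJL1 below, against 27.4% and 26.2% of all tested genes. The median log2 fold change was 0.58 over the 50 tested members and 0.01 over all tested genes, and 41 of the 50 values were positive. No test compares the members with other genes, and these shares are a description. Genes with low levels leaned upwards in these libraries: of all tested genes under 1 CPM 19.6% were higher and 5.25% lower, and at 1 CPM or more 30.1% and 33.5%, a division chosen after the values were seen. Among members at 1 CPM or more, 18 of 27 were higher and 2 lower, and among the 23 tested members under 1 CPM 2 were higher and 1 lower.

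The 15 untested genes had at most 16 counts in any library. They were H2AC1, H2AC4, H2AC7, H2AC19, H2AC21, H2BC1, H2BC3, H3C3, H3C7, H3C11, H3C15, H4C1, H4C2, H4C7 and H4C13. Of these H2AC7, H2AC19 and H3C15 were at 0 in all 7 libraries. H2AC19 and H3C15 lie within the span of H4C15 and H2AC7 within that of H3C4, and H3C15 shares 100% of the 50-base windows of its transcript with H3C14, and how shared reads were assigned is given by no label or header.

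**Figure D2:**
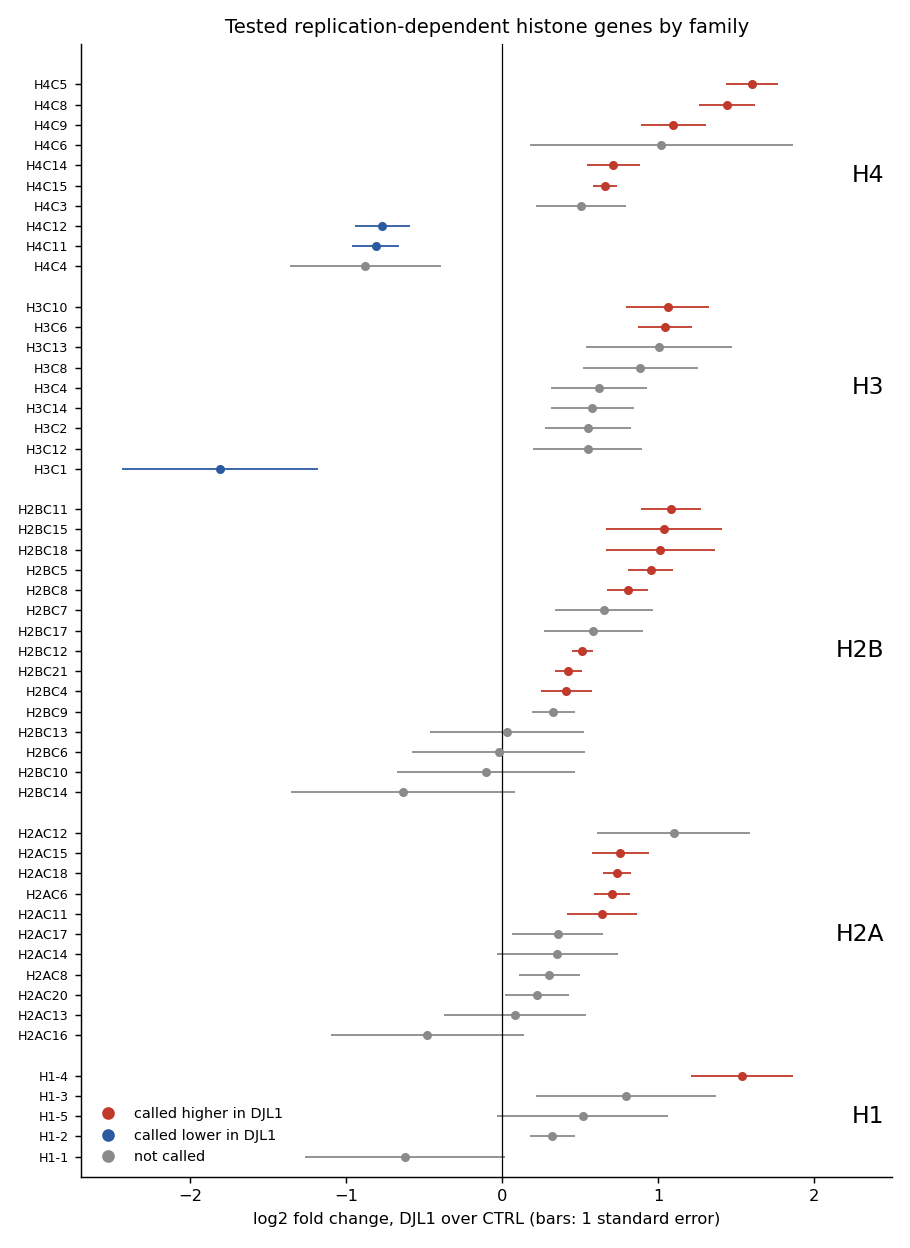
Log2 fold change of DJL1 over CTRL (horizontal axis) for the 50 tested members, grouped by histone family; bars are 1 standard error. The called genes higher in DJL1 run from 0.41 (H2BC4) to 1.60 (H4C5), and the 3 called lower are H4C11, H4C12 and H3C1.

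H4, the most conserved core histone, had 14 members, of which 5 of the 10 tested were higher and 2 lower. These shares, 50.0% and 20.0%, stood beside 27.0% and 25.1% of all tested genes. H4C5 (chromosome 6, 26204610 to 26205021, plus strand) had the largest positive fold change of all members. It stood at 2.47, 1.81, 2.11 and 1.97 CPM in CTRL and at 5.95, 7.99 and 5.04 in DJL1. Each DJL1 library was more than 2 times the highest CTRL library, and the log2 fold change was 1.60 (SE 0.17, edgeR adjusted p = 1.1e-06). H4C8 (chromosome 6, 26285126 to 26285534, minus strand) stood at 0.899, 1.26, 1.21 and 1.23 CPM in CTRL and 3.29, 2.88 and 3.21 in DJL1, and the log2 fold change was 1.44 (SE 0.18, adjusted p = 7.3e-06). CTRL replicate 1 lay below the other CTRL libraries for this gene, and the DJL1 libraries lay close together. H4C9, which lies within the span of H2BC12 on the opposite strand, stood at 0.850 to 1.06 CPM in CTRL and 1.80 to 2.37 in DJL1 (log2 fold change 1.10, SE 0.21, adjusted p = 0.00039).

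The chromosome 1 copies H4C14 and H4C15 share 100% of their transcript windows, so their reads cannot be divided between them with certainty. H4C15 stood at 29.2 to 30.8 CPM in CTRL and at 45.8, 54.97 and 40.9 in DJL1, and the log2 fold change was 0.66 (SE 0.08, adjusted p = 2.9e-06). H4C14 stood at 3.45 to 4.42 CPM in CTRL and 4.94 to 8.90 in DJL1, and the log2 fold change was 0.71 (SE 0.17, adjusted p = 0.0024). Both rose, and DJL1 replicate 2 was the highest library for each. RefSeq gives H4C15 a span of 16753 bases that also holds H2AC19 and H3C15, and with H2BC12 it carried 40.5% of the members' CPM in CTRL and 42.5% in DJL1.

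H4C11 and H4C12 fell. H4C11 (chromosome 6, 27824092 to 27824480, plus strand) stood at 10.5, 9.29, 8.20 and 8.28 CPM in CTRL and at 5.45, 6.36 and 3.72 in DJL1 (log2 fold change -0.81, SE 0.15, adjusted p = 0.0003). H4C12 (chromosome 6, 27831174 to 27831560, minus strand) stood at 10.9, 9.46, 8.49 and 8.75 CPM in CTRL and at 6.26, 6.90 and 3.43 in DJL1 (log2 fold change -0.77, SE 0.17, adjusted p = 0.0016). Every DJL1 library was below every CTRL library for both, with DJL1 replicate 3 the lowest. The 2 genes are near copies: 100% of the 50-base windows of the H4C12 transcript occur in H4C11, and their counts in a library were nearly equal, H4C11 having 87.1% to 109% of the counts of H4C12. Their reads cannot be told apart here, so each value is uncertain on its own and the 2 calls are not independent. Per kilobase of RefSeq gene, which leaves out the 8 members with spans over 1000 bases, these 2 had the highest levels of any member in CTRL, 24.3 CPM per kb for H4C12 and 23.3 for H4C11. In DJL1 they ranked 5 and 7, at 14.3 and 13.3 CPM per kb. H4C5 ranked 9 in CTRL at 5.07 CPM per kb and 3 in DJL1 at 15.4, an order that was not tested. Without H4C11 and H4C12 the summed level of the members had a ratio of 1.55 and that of the H4 family 1.69, with 38.4 to 41.4 CPM in CTRL and 57.0 to 79.4 in DJL1 for the latter.

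The remaining tested H4 genes, H4C3, H4C4 and H4C6, were not called. H4C4 had all DJL1 values below CTRL, 0.257 to 0.434 CPM in CTRL and 0.157 to 0.200 in DJL1, at 17 to 33 and 6 or 7 counts (adjusted p = 0.14).

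**Figure D3:**
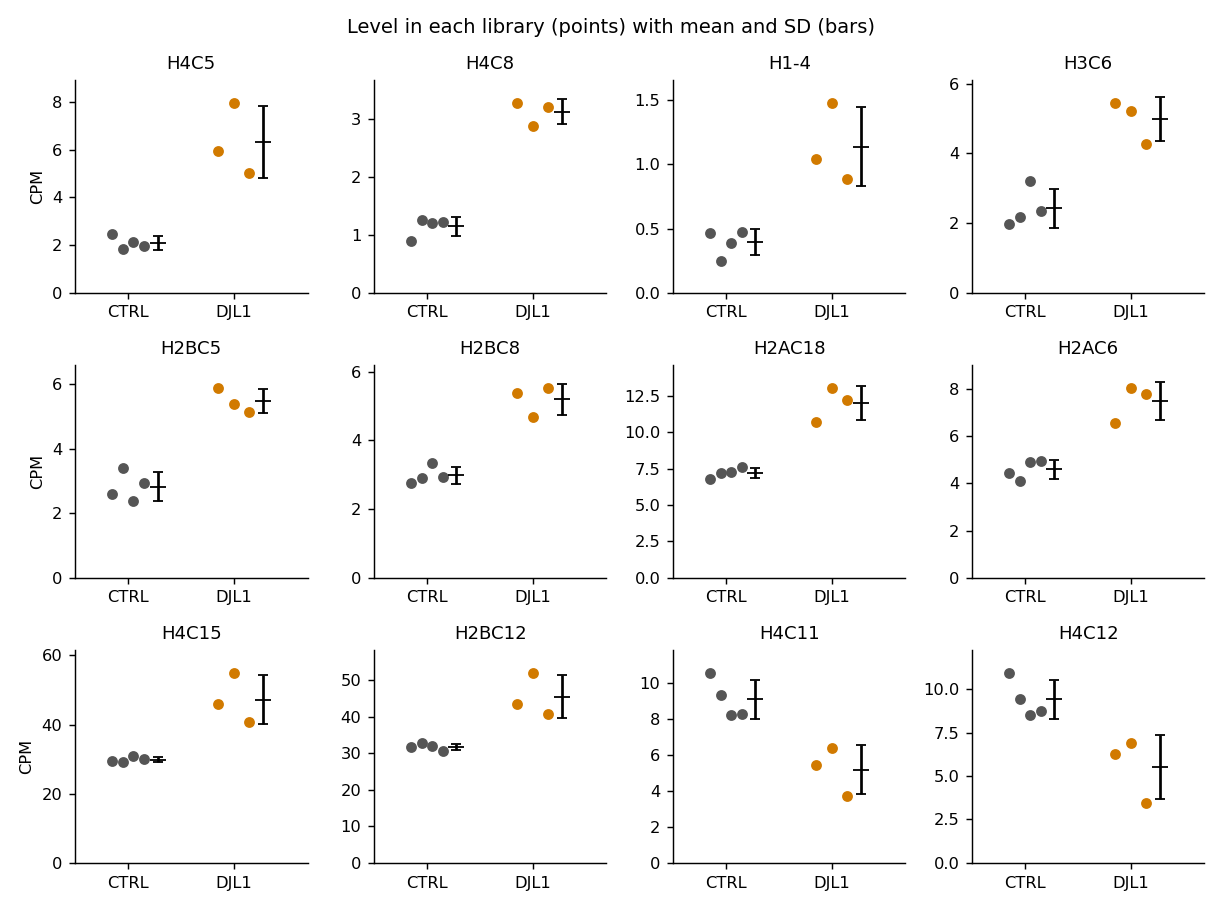
CPM (vertical axes, each from 0) of 12 members in each CTRL and DJL1 library; points are libraries and bars the mean and SD. All 12 are called members whose groups do not overlap, so the panels do not show how common such separation is. In 10 of the panels every DJL1 point is above every CTRL point, and in those of H4C11 and H4C12 every DJL1 point is below. Over the 50 tested members this held for 22 above and 4 below, against 27.4% and 26.2% of all tested genes.

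The H2A and H2B genes, whose products pair as the outer dimers of the nucleosome, were called in 1 direction: 8 of the 15 tested H2B genes and 4 of the 11 tested H2A genes were higher, and none of the 26 was lower. The shares higher, 53.3% for H2B and 36.4% for H2A, stood beside 27.0% of all tested genes, of which 25.1% were lower. H2BC12 had the highest H2B count. It stood at 30.7 to 32.7 CPM in CTRL and at 43.5, 52.1 and 40.8 in DJL1 (log2 fold change 0.51, SE 0.07, adjusted p = 1.4e-05). Its RefSeq span of 8566 bases holds H4C9, and 25.9% of its transcript windows were unique. H2BC21 on chromosome 1 stood at 8.08 to 9.31 CPM in CTRL and 10.98 to 12.5 in DJL1 (log2 fold change 0.42, SE 0.09, adjusted p = 0.00069). Both genes rose by less than the other called H2B genes apart from H2BC4.

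H2BC5 stood at 2.60, 3.39, 2.38 and 2.94 CPM in CTRL and at 5.90, 5.39 and 5.15 in DJL1 (log2 fold change 0.95, SE 0.14, adjusted p = 4.3e-05). RefSeq gives H2BC5 a span of 13229 bases that overlaps H2BC6-AS1 and LARP1P1. H2BC8 stood at 2.74, 2.91, 3.35 and 2.92 CPM in CTRL and at 5.38, 4.68 and 5.53 in DJL1 (log2 fold change 0.80, SE 0.13, adjusted p = 8.8e-05). For both the groups were well apart, and DJL1 replicate 2 was not the highest library. H2BC11, named after its values were seen, stood at 1.01 to 1.62 CPM in CTRL and 2.51 to 3.14 in DJL1 (log2 fold change 1.08, SE 0.19, adjusted p = 0.00021).

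The H2B calls of H2BC4, H2BC15 and H2BC18 depended on single libraries. H2BC4 stood at 1.80 to 2.33 CPM in CTRL and 2.48 to 3.11 in DJL1, and the log2 fold change was 0.41 (SE 0.16, adjusted p = 0.045). The call was lost without any 1 of the CTRL libraries, DJL1 replicate 1 or DJL1 replicate 3, with an adjusted p of 0.055 to 0.14 in those 6 fits. H2BC15 stood at 0.434 to 0.697 CPM in CTRL and at 1.38, 1.80 and 0.459 in DJL1, so that DJL1 replicate 3 lay within the CTRL range, and the call (log2 fold change 1.04, adjusted p = 0.028) was lost without CTRL replicate 1, CTRL replicate 3, DJL1 replicate 1 or DJL1 replicate 2 (adjusted p 0.061 to 0.20). H2BC18 stood at 0.690 to 0.901 CPM in CTRL and at 0.548, 2.23 and 1.94 in DJL1, so that DJL1 replicate 1 lay below CTRL, and the call (log2 fold change 1.01, adjusted p = 0.024) was lost without CTRL replicate 1, CTRL replicate 2, DJL1 replicate 2 or DJL1 replicate 3 (adjusted p 0.059 to 0.16). The RefSeq span of H2BC18, 29682 bases, overlaps FCGR1A and LOC124904411. H2BC9 was just outside the threshold, at 3.08 to 3.65 CPM in CTRL and 3.80 to 4.94 in DJL1 (adjusted p = 0.059), and passed it without DJL1 replicate 3 (log2 fold change 0.39, adjusted p = 0.037).

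Among H2A genes H2AC18 stood at 6.77, 7.17, 7.24 and 7.63 CPM in CTRL and at 10.7, 13.1 and 12.2 in DJL1 (log2 fold change 0.74, SE 0.09, adjusted p = 6.9e-06). Its paralog H2AC19 was at 0, and neither has a GENCODE 29 transcript under its symbol, so the sequence they share was not measured. H2AC6 stood at 4.43, 4.10, 4.91 and 4.92 CPM in CTRL and at 6.55, 8.04 and 7.80 in DJL1 (log2 fold change 0.70, SE 0.12, adjusted p = 0.00011). The groups were apart for both genes by more than the spread within either group. H2AC15 and H2AC11 rose by 0.76 (SE 0.18, adjusted p = 0.0024) and 0.64 (SE 0.23, adjusted p = 0.026) on the log2 scale, and the call of H2AC11 was lost without CTRL replicate 2, CTRL replicate 4 or DJL1 replicate 3 (adjusted p 0.067 to 0.088).

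Most H2A and H2B genes lie head to head and share the bases between their starts. Of 10 H2A and H2B pairs with starts within 1000 bases, 3 had both genes higher: H2BC4 with H2AC6, H2BC11 with H2AC11, and H2AC15 with H2BC15. In 2 pairs the H2B gene was called and its H2A partner was not. H2BC8 had a log2 fold change of 0.80 and H2AC8, with starts 233 bases apart, of 0.30 (SE 0.20, adjusted p = 0.22). H2BC21 had 0.42 and H2AC20 0.22 (SE 0.20, adjusted p = 0.39), with starts 236 bases apart. The difference within a pair was not tested.

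H3, the core histone with the most studied tail modifications, had 2 of 9 tested genes higher and 1 lower. These shares, 22.2% and 11.1%, were below the 27.0% and 25.1% of all tested genes. H3C6 stood at 1.97, 2.16, 3.22 and 2.33 CPM in CTRL and at 5.45, 5.22 and 4.26 in DJL1 (log2 fold change 1.04, SE 0.17, adjusted p = 0.0001). CTRL replicate 3 was the highest CTRL library but still below each DJL1 library. H3C10, named after its values were seen, stood at 0.642 to 0.772 CPM in CTRL and 0.944 to 1.90 in DJL1 (log2 fold change 1.06, SE 0.27, adjusted p = 0.0036). H3C14, the most counted H3 gene beside H3C6, stood at 0.979 to 1.62 CPM in CTRL and at 1.38, 2.91 and 1.48 in DJL1 (log2 fold change 0.58, SE 0.27, adjusted p = 0.085), and its copy H3C15 was at 0. It passed the threshold without DJL1 replicate 1 (0.76, adjusted p = 0.036) or without DJL1 replicate 3 (0.72, adjusted p = 0.0499). H3C8 (0.712 to 0.995 CPM in CTRL and 0.548, 2.62 and 1.43 in DJL1) was just outside the threshold at an adjusted p of 0.056 and passed it without DJL1 replicate 1 (log2 fold change 1.28, adjusted p = 0.0014).

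H3C1 was the only called H3 gene below CTRL, at 14, 17, 10 and 20 counts in CTRL and 2, 2 and 3 counts in DJL1. Over each group these were 61 and 7 counts, a ratio of 0.277 with a 95% interval (exact, counting error only) of 0.107 to 0.606. The call (edgeR log2 fold change -1.81, SE 0.63, adjusted p = 0.024) was lost without DJL1 replicate 1 (adjusted p = 0.064) or DJL1 replicate 2 (adjusted p = 0.058), and without CTRL replicate 1, CTRL replicate 2 or CTRL replicate 4 the gene fell below the filter and was not tested.

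Of the 5 H1 genes, which encode the linker histones that bind the DNA between nucleosomes, 1 was called. It was higher, a share of 20.0% against 27.0% of all tested genes. H1-4 stood at 0.465, 0.250, 0.386 and 0.469 CPM in CTRL and at 1.04, 1.48 and 0.890 in DJL1 (log2 fold change 1.54, SE 0.33, adjusted p = 0.00099). The groups did not overlap, on 19 to 31 counts in CTRL and 33 to 52 in DJL1. H1-2 had the most counts of the family, at 9.48, 6.73, 8.19 and 8.03 CPM in CTRL and 10.1, 12.6 and 7.69 in DJL1, and was not called (log2 fold change 0.32, SE 0.14, adjusted p = 0.074). It passed the threshold without CTRL replicate 1 (0.41, adjusted p = 0.042) or without DJL1 replicate 3 (0.48, adjusted p = 0.0076). H1-1, H1-3 and H1-5 stood at 0.827 CPM or less in each library and were not called. Of the other members not called with all 7 libraries, H2AC12, H2AC17, H2BC7, H3C4, H3C12, H3C13 and H4C3 passed the threshold as higher in at least 1 fit that left out a library, at an adjusted p of 0.029 to 0.049.

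**Figure D4:**
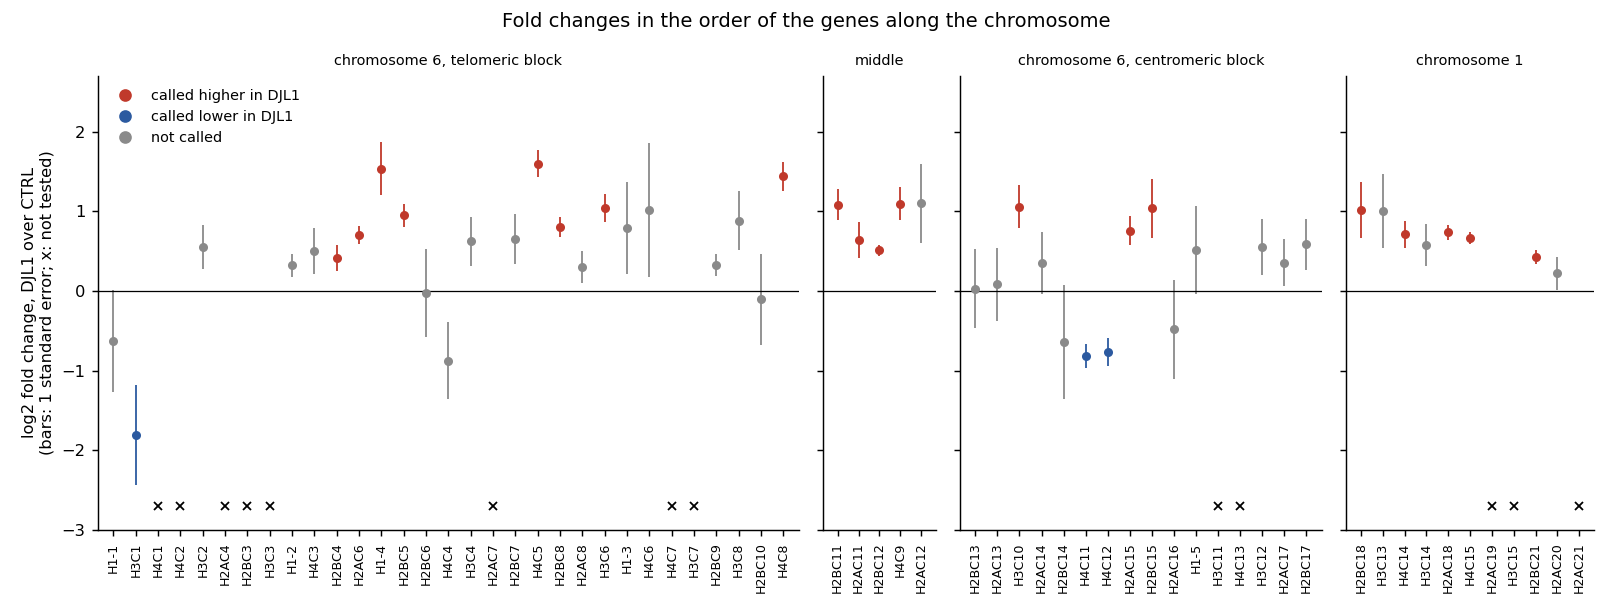
Log2 fold change of DJL1 over CTRL (vertical axis, bars 1 standard error) for the members in their order along 3 blocks of chromosome 6 and the chromosome 1 cluster; crosses mark genes that were not tested. Genes called higher occur in all 4 panels, and H4C11 and H4C12 are neighbours in the centromeric block.

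The members called higher were spread over the clusters. In the block nearest the telomere of the short arm (chromosome 6, 26017032 to 26285534) 8 of 23 tested members were higher and 1 lower, and the summed means were 37.6 ± 2.09 CPM (SD, n = 4) in CTRL and 60.7 ± 6.82 (SD, n = 3) in DJL1. In the middle block (27132316 to 27147562) 4 of 5 were higher, and the summed means were 35.3 ± 1.15 and 52.2 ± 6.48 CPM. In the cluster on chromosome 1 (149782689 to 149887965) 5 of 8 were higher, all 8 fold changes were positive, and the summed means were 53.8 ± 1.89 and 83.4 ± 12.3 CPM. The block nearest the centromere (chromosome 6, 27807479 to 27893891) had 3 of 14 higher and 2 lower, and its summed level of 23.7 to 29.01 CPM in CTRL overlapped the 14.7 to 27.6 CPM in DJL1. H4C11 and H4C12 were the most counted genes there. The shares higher were 34.8% in the telomeric, 80.0% in the middle and 21.4% in the centromeric block, and 62.5% on chromosome 1. Over all tested genes 27.0% were higher and 25.1% lower, so the telomeric and centromeric blocks stood near that share. Differences between blocks were not tested.

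The upstream sequence was compared because members of a family share promoter elements. RefSeq's promoter table (GRCh38.p14, 250 bases before to 50 after the start) held 60 of the 65 members. On both strands CCAAT occurred in 85.0% of them and in 35.7% of 27305 promoters, TATAAA in 68.3% and 12%, and the octamer ATTTGCAT in 43.3% and 1.8%. The octamer was found in 14 of 17 H2B and 11 of 15 H2A promoters and in none of 12 H4 promoters, and CCAAT in 3 of the 12 H4 promoters and in all promoters of the other families in the table. The 120 bases upstream of 5 members follow, chosen for the opposite calls within H4 and for an H2B gene with all 3 elements, 5′ to 3′ on the strand of the gene, with matches to these letters in capitals.
H4C5 (chr6:26204490-26204609, plus strand): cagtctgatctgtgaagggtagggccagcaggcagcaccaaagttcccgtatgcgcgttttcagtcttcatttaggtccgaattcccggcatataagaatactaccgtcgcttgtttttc
H4C8 (chr6:26285535-26285654, minus strand): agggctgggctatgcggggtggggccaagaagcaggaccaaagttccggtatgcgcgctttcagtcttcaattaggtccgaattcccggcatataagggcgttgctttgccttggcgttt
H4C11 (chr6:27823972-27824091, plus strand): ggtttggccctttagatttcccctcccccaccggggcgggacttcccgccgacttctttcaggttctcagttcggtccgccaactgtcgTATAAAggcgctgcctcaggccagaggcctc
H4C12 (chr6:27831561-27831680, minus strand): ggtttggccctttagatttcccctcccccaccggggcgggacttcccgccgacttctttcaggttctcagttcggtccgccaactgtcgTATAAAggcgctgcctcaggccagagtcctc
H2BC8 (chr6:26216689-26216808, minus strand): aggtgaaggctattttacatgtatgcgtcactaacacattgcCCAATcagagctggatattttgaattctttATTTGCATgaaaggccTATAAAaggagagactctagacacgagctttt
The H4C11 and H4C12 upstream regions, 250 bases each, were 98.0% identical and held TATAAA. Those of H4C5 and H4C8, the H4 genes with the largest positive fold changes, were 72.5% identical, were 50.5% and 49.5% identical to that of H4C11, and held none of the 3 motifs within the bases shown. Apart from H4C12, identity to H4C11 ran from 44.8% (H4C14 and H4C15) to 56.8% (H4C9), so values near 50% were common to H4 genes. TATAAA also occurred in H4C2, H4C7 and H4C13, which were not tested, and in H4C4, which was tested and not called. H4C4 had all DJL1 values below CTRL (log2 fold change -0.88, SE 0.48). A link of these sequences to the calls was not tested. Called genes occurred with and without each element. Of tested members with the octamer 8 of 20 were higher and none lower, and of those without it 12 of 27 were higher and 3 lower. With TATAAA 12 of 30 were higher and 3 lower, and without it 8 of 17 were higher and none lower. With CCAAT 16 of 40 were higher and 1 lower, and without it 4 of 7 were higher and 2 lower, H4C11 and H4C12. Over all tested genes 27.0% were higher and 25.1% lower. A match is only a match of letters.

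The transcript models differ in whether they run past the stem-loop. GENCODE 29 has a model that goes on for at least 100 bases after it for 20 members, among them H4C5 (1022 bases), H2BC8 (1059), H2AC6 (1114), H2AC11 (1761) and H4C9 (212). Of the 19 tested, 14 were higher and none lower, and their summed level was 66.0 to 72.9 CPM in CTRL and 100.2 to 129 in DJL1. In 6 members, H4C11 among them with 6 bases, the longest model ends within 100 bases of the stem-loop, and of the 5 tested 1 (H2BC5) was higher and 1 (H4C11) lower. The RefSeq span of H2BC5 is 13229 bases. The summed level of the 6 was 13.7 to 15.9 CPM in CTRL and 11.2 to 16.3 in DJL1. Another 35 members had models without the stem-loop, and of the 24 tested 4 were higher and 2 lower. A model can end before the stem-loop, so its absence there does not show that the RNA lacks it. The H4C12 model, of 312 bases, is in this set, while that of its near copy H4C11, of 373 bases, holds the stem-loop. The summed level of the 35 was 58.6 to 64.2 CPM in CTRL and 66.2 to 93.1 in DJL1. The remaining 4, H2AC18, H2AC19, H3C2 and H3C3, had no model under their symbol, and of the 2 tested H2AC18 was higher. The sets also differ in level: most of the 19 averaged 1 CPM or more, and most of the 24 did not. Among all members at 1 CPM or more 18 of 27 were higher, and among tested members under 1 CPM 2 of 23. By share 73.7% of the 19 and 16.7% of the 24 were higher. Over all tested genes 27.0% were higher and 25.1% lower. At 1 CPM or more these shares were 30.1% and 33.5%, and under 1 CPM 19.6% and 5.25%. Gene-level counts do not show where reads fall, so the 3′ ends in these cells were not measured. A difference between these sets, and the part of level in it, was not tested.

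DJL1 libraries differed among themselves more than CTRL libraries. For the 27 members at 1 CPM or more the median coefficient of variation was 11.7% in CTRL and 15.2% in DJL1, and over all 18294 tested genes at that level 4.27% and 8.89%. DJL1 replicate 2 was the highest DJL1 library for 20 of the 27 members, and for 33.1% of all tested genes at that level. Its depth was the lowest of the 7 libraries; the part of depth in the histone values was not tested, and with counts thinned to the smallest library 20 members were higher and 2 lower. Without DJL1 replicate 2, 18 were higher and 2 lower.

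Of 23 genes that make and process histone mRNA, 4 were higher, 8 lower and 11 not called, with a median log2 fold change of -0.05. Of all tested genes at 1 CPM or more 30.1% were higher and 33.5% lower, so the share lower in this list, 34.8%, was near the background and the share higher, 17.4%, below it. SLBP, which binds the stem-loop, stood at 58.4 ± 0.824 CPM (SD, n = 4) in CTRL and 56.4 ± 1.75 (SD, n = 3) in DJL1 (edgeR adjusted p = 0.35). NPAT, the coactivator of histone transcription, had a log2 fold change of -0.02 (adjusted p = 0.83), CASP8AP2 of -0.01 (adjusted p = 0.93), and LSM11 of the U7 snRNP of -0.04 (adjusted p = 0.71); the sign of these last 3 changed with the setting. ZNF473, a zinc finger protein associated with the U7 snRNP, stood at 18.7 ± 0.493 CPM (SD, n = 4) in CTRL and 26.7 ± 2.29 (SD, n = 3) in DJL1, and had the largest positive fold change of the list (log2 fold change 0.51, SE 0.07, adjusted p = 7.9e-06). LSM10, the partner of LSM11, fell by 0.40 on the log2 scale (SE 0.06, adjusted p = 8.1e-05), and the U7 RNA gene RNU7-1 had -0.79 (SE 0.42, adjusted p = 0.13) at 0.183 to 0.610 CPM. RNU7-1 passed the threshold without DJL1 replicate 3 (log2 fold change -1.38, adjusted p = 0.015). CPSF2, a subunit of the cleavage machinery shared with other mRNAs, fell by 0.53 (SE 0.06, adjusted p = 2.5e-06), while CSTF2 and the cap-binding gene NCBP2 rose by 0.36 (SE 0.04, adjusted p = 3.1e-06) and 0.46 (SE 0.04, adjusted p = 6.8e-08).

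Most S phase genes were lower in DJL1. Of 28 listed, 17 (60.7%) were lower and 3 (10.7%) higher, against 33.5% and 30.1% of all tested genes at 1 CPM or more. The median log2 fold change was -0.24, and the summed level was 3518 to 3569 CPM in CTRL and 2820 to 3063 in DJL1. E2F1, a transcription factor of S phase entry, stood at 79.2 ± 1.86 CPM (SD, n = 4) in CTRL and 50.7 ± 1.27 (SD, n = 3) in DJL1, and fell by 0.65 on the log2 scale (SE 0.04, adjusted p = 9.6e-09). MCM5, a subunit of the replicative helicase, fell by 0.65 (SE 0.05, adjusted p = 1.6e-08) and GINS2, part of the same helicase complex, by 0.64 (SE 0.05, adjusted p = 1.1e-07). The 3 higher genes were PCNA, GINS3 and CCNE2, the last with overlapping groups (log2 fold change 0.53, SE 0.17, adjusted p = 0.015), and CCNE1 was not called (log2 fold change 0.01, adjusted p = 0.86, with a sign that changed with the setting). The part of the cell cycle in the histone values was not tested.

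Histone chaperones, which carry and deposit histones, were lower in 17 of 25 (68.0%) and higher in 2 (8.0%). Of all tested genes at 1 CPM or more 33.5% were lower and 30.1% higher. The 2 higher chaperones were SPTY2D1 (log2 fold change 0.57, SE 0.05, adjusted p = 3.2e-07) and DAXX. TONSL, which binds newly deposited histones, fell by 0.54 (SE 0.05, adjusted p = 3e-07), ANP32E, a chaperone of H2A.Z, by 0.40 (SE 0.04, adjusted p = 6.3e-07), and CHAF1A, a subunit of the replication-coupled assembly factor CAF-1, by 0.20 (SE 0.04, adjusted p = 0.0012). ASF1B had -0.18 (SE 0.07, adjusted p = 0.052) and was called lower with DESeq2 (adjusted p = 0.041).

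The replication-independent histone variants, whose mRNAs mostly carry poly(A) tails (H2AX is known to make RNA of both kinds), had 4 of 11 higher and 3 lower with a median of 0.06. These shares, 36.4% and 27.3%, were near the 30.1% and 33.5% of all tested genes at 1 CPM or more. H3-3A fell by 0.38 (SE 0.04, adjusted p = 3.9e-07), whereas H3-3B, which encodes the same H3.3 protein, rose by 0.14 (SE 0.04, adjusted p = 0.013). H2AZ2 and H2AX fell by 0.36 (SE 0.04, adjusted p = 2.5e-06) and 0.33 (SE 0.12, adjusted p = 0.035), and H2AZ1 was not called (log2 fold change 0.08, adjusted p = 0.12). The summed level of these variants, 2138 to 2178 CPM in CTRL and 2126 to 2334 in DJL1, overlapped between the groups.

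Among 14 germline and embryo variants 8 were tested and 5 (62.5%) were higher and none lower, with a median of 1.61. Of all tested genes 27.0% were higher and 25.1% lower, and of those under 1 CPM 19.6% and 5.25%. H3Y1, a primate-specific H3 gene, stood at 0.197 to 0.418 CPM in CTRL and 1.85 to 3.99 in DJL1 (log2 fold change 3.28, SE 0.32, adjusted p = 5.6e-07). H2AB1, H2AB2 and H2AB3 are near copies, and the rows of H2AB2 and H2AB3 held equal means (0.209 CPM in CTRL and 0.919 in DJL1), so they count as 1 signal. H3-5 rose by 0.34 (SE 0.06, adjusted p = 0.00012).

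Other RNAs that lack a poly(A) tail were counted as a rough measure of what else passed the selection, and most had too few counts to be tested. Of 44 listed 43 were in the table, 16 were tested, and 3 were higher and 4 lower, with a median log2 fold change of -0.41. These shares, 18.8% and 25.0%, stood beside 27.0% and 25.1% of all tested genes. Without DJL1 replicate 1, 2 were higher and 2 lower. RNU6-1 stood at 0.316 to 0.788 CPM in CTRL and 10.0 to 21.7 in DJL1 (log2 fold change 4.76, SE 0.30, adjusted p = 1.6e-07), and it has near copies elsewhere in the genome. The summed level of the list, RNU6-1 included, was 33.3 to 35.8 CPM in CTRL and 41.2 to 53.9 in DJL1. Its mean was 34.7 CPM in CTRL and 48.4 in DJL1, and that of RNU6-1 alone was 0.557 and 14.9. The sum thus rose by no more than RNU6-1 did. RN7SL1, the most counted RNA of the list, was called higher with overlapping groups (log2 fold change 0.26, SE 0.10, edgeR adjusted p = 0.0497). It stood at 17.9 to 19.8 CPM in CTRL and 18.3 to 28.2 in DJL1. SNORA73B and RPPH1, the RNA of RNase P, fell by 1.38 (SE 0.17, adjusted p = 8.2e-06) and 0.97 (SE 0.18, adjusted p = 0.00038). RN7SK had -0.04 (SE 0.21, adjusted p = 0.88, with a sign that changed without DJL1 replicate 1 or DJL1 replicate 3), at 1.89 to 2.04 CPM in CTRL and 1.40 to 2.60 in DJL1. These RNAs did not move in 1 direction, and the part of carry-over of tailless RNA in the histone values was not tested.

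**Figure D5:**
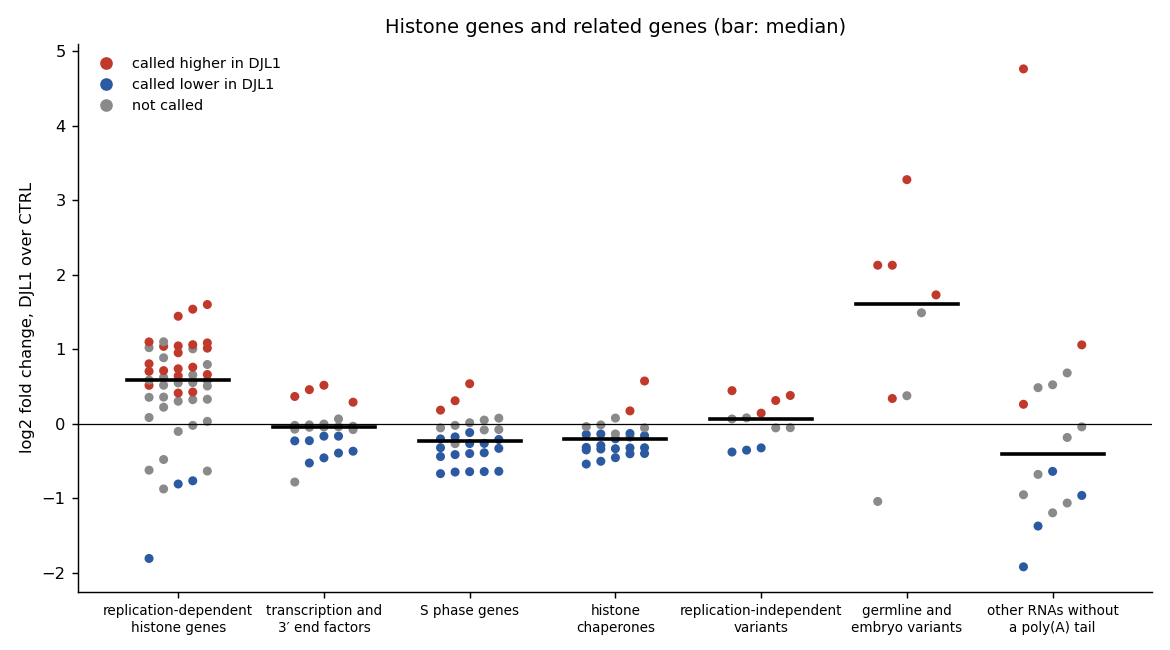
Log2 fold change of DJL1 over CTRL (vertical axis) for the tested genes of 7 lists, 1 point per gene coloured by call, with the median as a bar. The median of the replication-dependent histone genes is 0.58, those of the S phase and chaperone lists are -0.24 and -0.20, and a single point near 4.76 is RNU6-1.

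The authors' deposited table of the same comparison listed 37 of the 65 members among 20199 genes. In it 19 members were higher and 2 lower at an adjusted p of 0.05, against 32.4% and 30.1% of its genes, and 34 of the 37 had the call given above. In the authors' deposited table H2BC9 was called higher (adjusted p = 0.046), and H2BC15 (adjusted p = 0.077) and H2BC18 (adjusted p = 0.084) were not called.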

How the data were processed

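Poly(A) RNA of 4 CTRL and 3 DJL1 samples was sequenced, and groups were read from the sample titles. The authors deposited raw counts per gene symbol, used here without change, and a table of their own DJL1 comparison, which per the file headers holds a log2 fold change and a p-value, raw and adjusted, per gene. Per the submitters' processing notes the tools were HISAT2 2.2.1, Trim Galore 0.4.0, Subread 1.5.0 and featureCounts, and the builds hg38 and GRCh38. No source used here says how strand was set or how multiply mapped reads were counted. The deposited log table was not used.

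The members were found by symbol. The 26062 genes that passed filterByExpr (minimum count 10, minimum total 15) held 99.93% of the counts and were compared by edgeR's quasi-likelihood test, 2-sided, with TMM factors, robust dispersion and Benjamini-Hochberg adjustment at 0.05 over all of them. The standard error of each fold change was derived from its F statistic. The fit was tested on simulated data. Positions, promoters and gene lengths are those of RefSeq (GRCh38.p14, 65 of 65 symbols matched), and transcripts those of GENCODE 29 (61 members). Shared sequence was measured in 50-base windows of the shortest transcript of each member against the transcripts of all other genes, on the transcript strand only. The software was Python 3.11.15 and R 4.3.3 with DESeq2 1.42.0, limma 3.58.1 and edgeR 4.0.16. Beside the members 6 lists of related genes and 3 of cell type markers were counted. The values of 1 gene of these lists are not reported here.

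Named members are the 4 highest and 4 lowest fold changes among called members whose groups did not overlap and reached 5 CPM in 1 group mean, the 2 most counted per family, and the 2 called and 2 uncalled nearest the threshold. Named genes of the 6 lists are the 3 with the smallest adjusted p and some fixed by name. H4C8, H4C9, H4C4, H4C14, H3C1, H3C10, H1-5, H2BC11, H2BC18, H2AC8, H2AC11, H2AC15, H2AC12, H2AC17, H2AC20, H2BC7, H3C4, H3C12, H3C13, H4C3, PCNA, GINS3, ZNF473, DAXX and RN7SL1 were added after their values were seen. The members and lists were chosen with earlier results of these data known. Alternatives were DESeq2, limma-voom, voom with a variance for each group, other scalings, thinning to the smallest library, no filter, a filter of 1 CPM in 3 libraries or more (the stricter filter), the replicate block, leaving out each library, a threshold of 0.01, and summing the duplicated pairs of chromosome 1.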

Additional observations from a re-analysis of the deposited data

Results flagged for a closer look

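In 31 groups of 4 CTRL values (named members and family sums), a library was taken as far from the others where its gap to the nearest value was, as a share of the group's range, above Dixon's 95% critical value, which chance alone gives in about 1 of 20 groups. This held for 2 genes. H4C8 in CTRL replicate 1 stood at 0.899 CPM, below 1.21 to 1.26 in the other CTRL libraries, and H4C3 in CTRL replicate 3 stood at 1.24 CPM, above 0.658 to 0.712 in the others. H4C8 was called higher without each library in turn, and H4C3 was called higher only without CTRL replicate 3 (log2 fold change 0.76, adjusted p = 0.044 by edgeR).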

How the results depend on the processing

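Over the 19 alternatives the members called higher numbered 16 to 23 against 20, and those called lower 2 or 3 against 3. Of the 20 called higher 13 were called in all 19, as were H4C11 and H4C12. H3C10 and H1-4, not tested with the stricter filter, and H4C15, not tested singly with duplicated pairs summed, were called in the other 18. With each library left out in turn the counts were 18 to 23 and 2 to 3, and the log2 ratio of the summed level was 0.395 to 0.602 against 0.515. The median log2 fold change of all tested genes moved between -0.03 and 0.03. No pairing of CTRL and DJL1 libraries was detected: the correlations of deviations were -0.046 to 0.041. That does not show that the replicates were made separately, and the labels do not say. With the replicate block 17 members were higher and 2 lower.

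Among lists, the germline variants called higher fell from 5 to 2 with the stricter filter, which tests 3 of them, and the RNAs without a poly(A) tail called lower from 4 to 2 with a variance for each group, with thinning, at an adjusted p of 0.01, with the replicate block and without DJL1 replicate 1 (2 to 5 with each library left out). The cause was not tested for the latter. Signs changed for values that were not called. NPAT log2 fold changes were 0.00131 with upper quartile factors and 0.013 with the stricter filter, CASP8AP2 log2 fold changes 0.0125 with upper quartile factors, 0.0105 with library size alone, 0.0243 with the stricter filter and 0.00987 with thinning, the LSM11 log2 fold change 0.00658 with thinning, and the CCNE1 log2 fold change -0.02 without a filter. With each library left out the ranges were -0.0921 to 0.022 for NPAT, -0.0322 to 0.0159 for CASP8AP2, -0.0813 to 0.0123 for LSM11, -0.0349 to 0.0236 for CCNE1, -0.343 to 0.122 for RN7SK and -0.398 to 0.893 for H1-5.

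The 38 members averaging under 1 CPM rest on few counts, so a difference in them was often not detectable at this depth.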
